A study of Rattus norvegicus with 93 samples.

Results

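The adult globin genes Hba-a1, Hba-a2, Hba-a3, Hbb, Hbb-b1 and Hbbl1 and the erythroid heme synthesis gene Alas2 were examined across RNA-seq libraries from outbred laboratory rats, made from the rostromedial tegmental nucleus (RMTg). These 7 genes were chosen by symbol from the 38354 genes of the deposited table, with earlier results of these data known, among them that erythroid genes differed between groups of libraries. The RMTg is an inhibitory nucleus of the brainstem that sends GABA projections to midbrain dopamine neurons, and the libraries were made from polyadenylated RNA in a study of statistical genetics and of how avoidance is learned in addiction. All 93 samples in the labels belong to 1 group, and strain beyond outbred, sex, age, genotype and treatment are not given in the sources used here. The table holds 92 libraries, and 1 sample that the labels mark as removed was not used here. Libraries were used where Nif3l1 took under 20% and LOC120093067 plus Zfp532 together under 10% of all counts, which left 49. The 49 libraries had at most 0.00166% and 5.498% of their counts in these features, while the nearest libraries left out had 28.8% in Nif3l1 or 19.8% in the pair. No label gives a batch, so the sample identifiers were sorted and a gap of over 50000 between neighbours started a new series. Of the libraries used, 7 belonged to series F (the highest identifiers), 7 to E, 12 to D, 16 to C and 7 to B. The labels do not say what sets the series apart, and a library is named here by its series and a number within it.

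Hemoglobin of adult red cells is a tetramer of alpha chains, encoded by the Hba genes, and beta chains, encoded by the Hbb genes, each carrying a heme. Alas2 encodes the 5-aminolevulinate synthase that starts heme synthesis in erythroid cells, whereas Alas1 serves that step in other tissues. In brain tissue, globin transcripts are known from red cells and reticulocytes in blood vessels, and low globin expression has also been described in neurons, so a bulk library does not assign them to a cell. In such libraries, fewer cells of a type and less RNA per cell cannot be told apart.

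In RefSeq (GRCr8) the alpha genes lie on the minus strand of chromosome 10, Hba-a1 at 15841724 to 15842580, Hba-a2 at 15828291 to 15829138 and Hba-a3 at 15816099 to 15816943. The beta genes lie on the minus strand of chromosome 1, Hbb at 167662310 to 167663721, Hbb-b1 at 167636064 to 167643577 and Hbbl1 at 167648859 to 167650235. Alas2 lies on chromosome X at 22890650 to 22914046. The table gives 1 position per gene, which equals an end of each of these spans, and the build it used is not given in the sources used here. The 150 bases before the start site are shown for the 6 globin genes, to let the gene copies be compared by sequence. The sequences are from RefSeq (GRCr8) and run 5′ to 3′ towards the start site. Capitals mark, on either strand, the letters of 3 boxes long known from globin promoters, namely the CACCC box, the CAAT box (CCAAT, which reads ATTGG on the other strand) and an A- and T-rich box near the start (ATAAA). The letters GATAA, part of sites bound by the erythroid factor GATA1, were also searched on both strands. These 4 motifs were chosen after the sequences were seen, and no marked match overlaps another; in Hbb a reverse and a forward CAAT box lie side by side.
Hba-a1 (chr10:15842581-15842730, minus strand): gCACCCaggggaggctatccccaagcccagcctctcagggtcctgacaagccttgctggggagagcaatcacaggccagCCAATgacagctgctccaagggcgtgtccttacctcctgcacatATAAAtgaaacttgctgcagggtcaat
Hba-a2 (chr10:15829139-15829288, minus strand): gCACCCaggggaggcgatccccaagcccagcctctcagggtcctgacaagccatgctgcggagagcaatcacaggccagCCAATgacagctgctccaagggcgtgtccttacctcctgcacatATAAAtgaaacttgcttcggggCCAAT
Hba-a3 (chr10:15816944-15817093, minus strand): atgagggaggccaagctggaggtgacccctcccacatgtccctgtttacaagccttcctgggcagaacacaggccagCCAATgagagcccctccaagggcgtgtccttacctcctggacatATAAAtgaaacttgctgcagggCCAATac
Hbb (chr1:167663722-167663871, minus strand): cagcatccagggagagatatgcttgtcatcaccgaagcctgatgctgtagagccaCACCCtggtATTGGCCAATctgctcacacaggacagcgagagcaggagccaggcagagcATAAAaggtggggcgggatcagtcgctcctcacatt
Hbb-b1 (chr1:167643521-167643670, minus strand): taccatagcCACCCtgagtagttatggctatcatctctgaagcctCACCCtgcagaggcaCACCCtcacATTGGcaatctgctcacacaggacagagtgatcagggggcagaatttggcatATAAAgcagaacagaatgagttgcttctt
Hbbl1 (chr1:167650236-167650385, minus strand): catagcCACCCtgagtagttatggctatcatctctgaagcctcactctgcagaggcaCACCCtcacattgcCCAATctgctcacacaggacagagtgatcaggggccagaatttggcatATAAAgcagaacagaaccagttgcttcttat

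All 6 windows held the CAAT box and the ATAAA letters, and all but that of Hba-a3 held the CACCC box. None held GATAA. Among 33469 RefSeq windows of the same length, 35.2% held the CACCC box, 23.5% the CAAT box, 25.7% the ATAAA letters and 14.2% GATAA on either strand. These are matches of letters and say nothing of binding. The windows of Hba-a1 and Hba-a2 were identical at 144 of 150 aligned bases and those of Hbb-b1 and Hbbl1 at 142 of 153, while those of Hbb and Hbbl1 were identical at 109 of 157 and those of Hba-a1 and Hba-a3 at 122 of 163. The window of Hbb-b1 ends 57 bases from the position the table gives for that gene. The RefSeq window of Alas2 starts 4800 bases inside the gene as the table places it, so it is not shown.

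The libraries used held 9545360 to 50172732 estimated counts, with a median of 19193978, and no pair of the 1176 possible was identical. Inhibitory RMTg markers were present throughout: Gad1, which makes GABA, ran from 234 to 567 counts per 1000000 counts of the library (CPM), and the RMTg transcription factor Sox14 ran from 30.7 to 59.3 CPM. The 7 members took 0.00538% to 0.267% of all counts, with a median of 0.0512%. All 7 passed the filter on low values, which kept 18749 genes. Levels are CPM of the library total and are not adjusted for transcript length, so they are compared between libraries and not between genes.

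The alpha-globin genes varied widely between rats and were highest in series F and E. Hba-a1 (alpha 1) had 249.9, 575 and 891 CPM as lowest, median and highest value in series F, 229.7, 542 and 1204 CPM in E, 174, 243 and 479.5 CPM in D, 29.4, 168 and 479 CPM in C, and 70.5, 159 and 222 CPM in B. All 7 libraries of F and all 7 of E lay above the highest library of B, and 5 of each lay above the highest of C, while the libraries of D spanned the upper part of the range of C. Hba-a2 (alpha 2) had 114, 309 and 376 CPM in series F, 88.6, 247 and 527 CPM in E, 70.3, 121 and 299 CPM in D, 15.7, 78.6 and 272 CPM in C, and 49.1, 77.99 and 89.2 CPM in B. Hba-a3, a further alpha copy, had 3.03, 10.5 and 26.6 CPM in series F, 3.21, 11.51 and 21.4 CPM in E, 2.06, 5.80 and 9.11 CPM in D, 0.0994, 3.85 and 12.1 CPM in C, and 2.5035, 3.44 and 5.63 CPM in B. For Hba-a2 all 7 libraries of F lay above all of B, and every other pair of series overlapped. For Hba-a3 all series overlapped, with 6 of 7 libraries of F and 6 of 7 of E above all of B. The order of the medians again put F and E above D, C and B. Over all 49 libraries Hba-a1 averaged 333 ± 248 CPM, Hba-a2 159 ± 111 CPM and Hba-a3 6.59 ± 5.02 CPM (SD).

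The beta-globin genes Hbb and Hbb-b1 also had their highest medians in series F and E, while Hbbl1 had its highest in F and D. Hbb had 122, 254 and 575 CPM as lowest, median and highest value in series F, 181, 465 and 876 CPM in E, 75.7, 132 and 346 CPM in D, 5.06, 68.3 and 521 CPM in C, and 44.5, 108 and 183 CPM in B. All series overlapped, although 6 of 7 libraries of F and 6 of 7 of E lay above the highest library of B. Hbb-b1, another beta gene, had 7.41, 24.1 and 38.5 CPM in series F, 6.985, 18.5 and 32.3 CPM in E, 6.55, 11.1 and 28.2 CPM in D, 0.589, 6.02 and 20.2 CPM in C, and 3.27, 4.70 and 8.93 CPM in B. For Hbb-b1, 6 of 7 libraries of F and 5 of 7 of E lay above all of B. The lowest of the 49 libraries for Hba-a1, Hba-a2, Hbb and Hbb-b1 was the same one, C23, with 29.4, 15.7, 5.06 and 0.589 CPM. C23 was not lowest for Alas2, which had 2.32 CPM there, and its total of 26740999 counts was above the median depth. Without C23, the lowest share of all counts taken by the members was 0.0190% (C17).

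Alas2 had 3.30, 7.16 and 15.6 CPM as lowest, median and highest value in series F, 2.34, 9.51 and 12.7 CPM in E, 2.23, 4.12 and 11.7 CPM in D, 1.82, 3.90 and 7.45 CPM in C, and 1.74, 2.48 and 4.505 CPM in B. In E, 6 libraries lay above all of B, as did 5 in F, and the ranges of all series overlapped in their lower part. The SD of log2(CPM + 1) over all libraries was 0.67 for Alas2 and 1.07 for Hba-a1, 1.05 for Hba-a2, 0.89 for Hba-a3, 1.29 for Hbb, 0.96 for Hbb-b1 and 2.92 for Hbbl1. Adding 1 lowers the SD more for genes at a few CPM, such as Alas2 and Hba-a3, so these SDs do not rank the genes by spread.

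**Figure D1:**
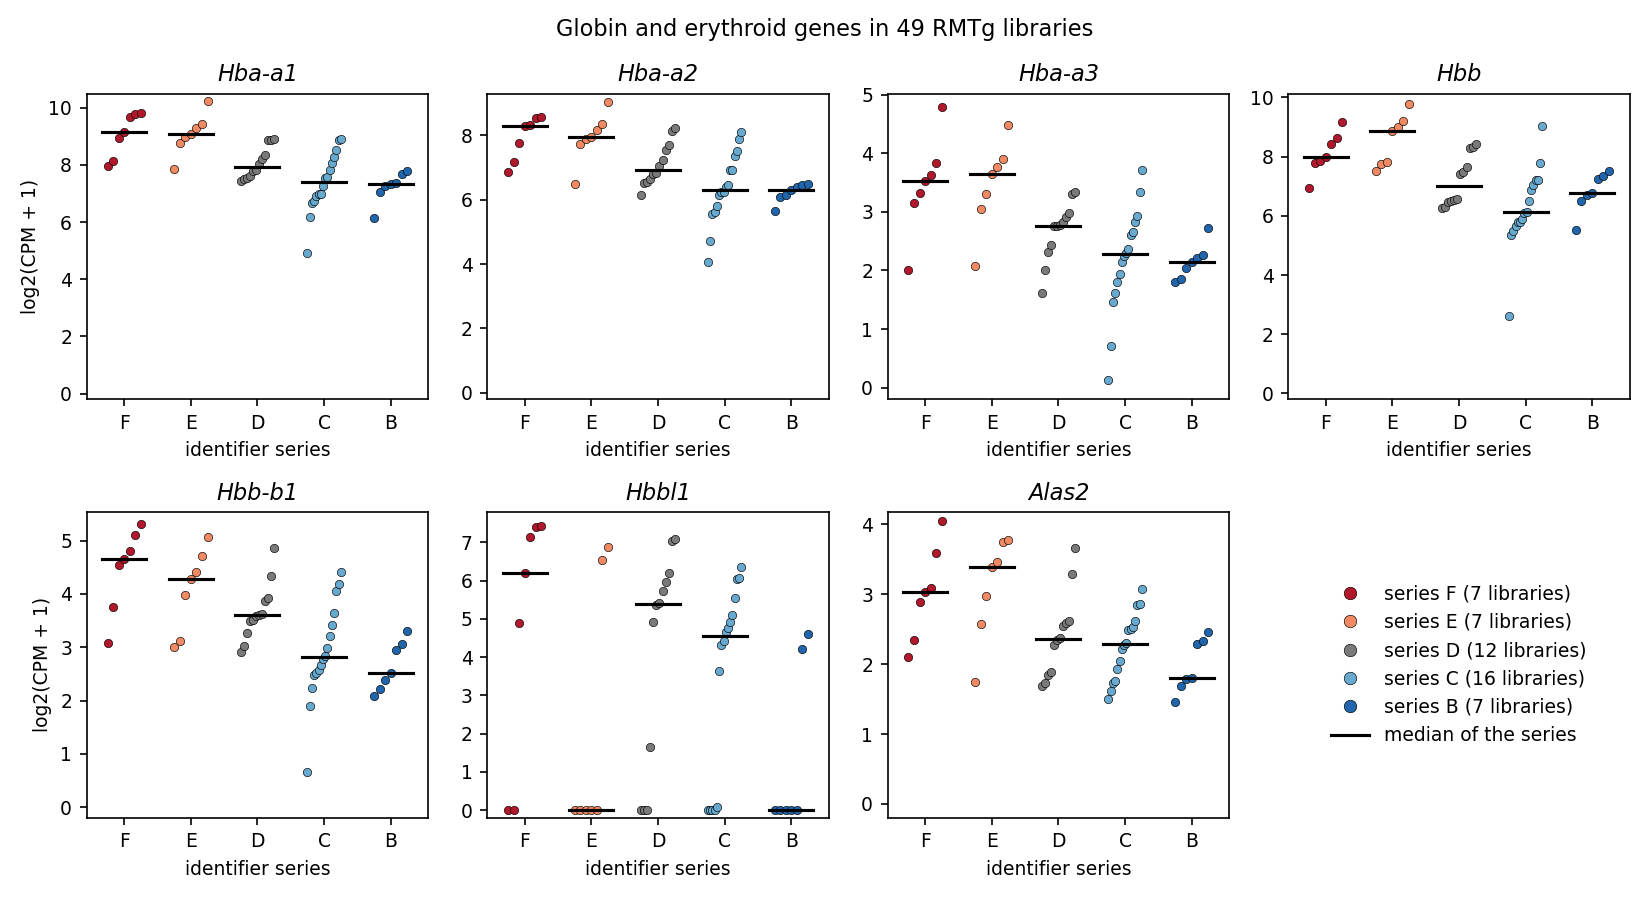
Level of each member in every library, as log2(CPM + 1), by identifier series from F to B; each point is 1 library and the bar is the median of its series. The median of each gene is highest in F or E, as for Hba-a1 with 575 and 542 CPM against 168 CPM in C, and Hbbl1 shows a group of points at or near 0 in every series.

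Hbbl1, a beta-globin-like gene, was either near 0 or well expressed. It was listed at 0 in 17 of 49 libraries, and sorted values left a gap between 2.12 and 11.45 CPM, or 1.995 log2 units, with 21 libraries below it and 28 above. Series F had 2 libraries listed at 0, a median of 72.6 CPM and a highest value of 170.2 CPM. Series E had 5 listed at 0 and a highest value of 117 CPM, D had 3, a median of 41.03 CPM and a highest value of 136 CPM, C had 3, a median of 22.4 CPM and a highest value of 80.6 CPM, and B had 4 and a highest value of 23.2 CPM. A total of 3 counts, the limit that a count of 0 allows, corresponded to 0.0598 to 0.314 CPM. Both kinds of library occurred in every series. No other member had a gap above 0.30 log2 units with at least 5 libraries on each side.

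Shares of the beta-globin counts fell into separate ranges as well. The shares were taken over Hbb, Hbb-b1, Hbbl1 and the further beta genes Hbb-b2 and Hbb-bs, which are no members, and they are shares of estimated counts and not of molecules. In 30 libraries Hbb took 39.2% to 46.6% of these counts, in 17 it took 63.2% to 69.3%, and in 2 it took 83.3% and 85.3%, with no library in the gaps of over 10 percentage points between the ranges. Hbbl1 plus Hbb-b2 took 41.9% to 49.03% in the 30 libraries, 22.5% to 28.8% in the 17, and 11.6% and 9.07% in the 2. Hbbl1 alone was over 3 counts in 29 of the 30 libraries and in none of the other 19. Within the 30, its share ran from 0.394% to 42.1% and that of Hbb-b2 from 3.54% to 47.9%, while their sum varied less than either. Without C23, which had under 3 counts of Hbbl1, the lowest share of Hbbl1 was 1.04% and the highest of Hbb-b2 41.8%. Hbb, Hbbl1 and Hbb-b2 together took 85.3% to 94.9% of the beta counts in all 49 libraries. Because all are shares of 1 total, a higher share of one lowers the others. Series F had 5, 2 and 0 libraries in the 3 ranges in that order, E had 2, 4 and 1, D had 9, 3 and 0, C had 12, 4 and 0, and B had 2, 4 and 1. These ranges were described after the values were seen, and no other gene was compared between them.

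**Figure D2:**
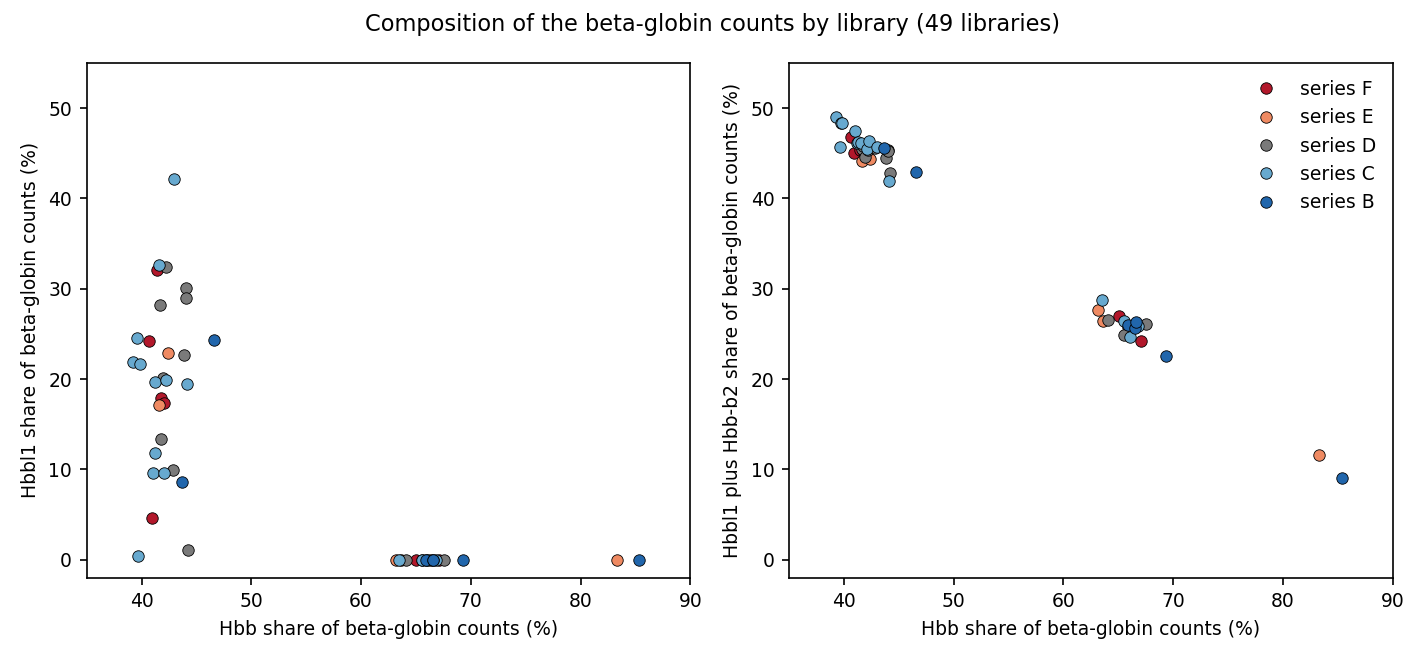
Share of the beta-globin counts taken by Hbb (x axis, percent) against that of Hbbl1 (left, percent) and of Hbbl1 plus Hbb-b2 (right, percent), with 1 point per library coloured by series. Points form 3 separate groups along the x axis, of 30, 17 and 2 libraries, and Hbbl1 is over 3 counts in 29 libraries, all in the leftmost group, with shares of up to 42.1%.

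Estimated counts of the globin copies depend on how reads shared between near-identical transcripts were split. Alas2 had between 0.5 and 200 counts in 43 libraries, and in all 43 the count was whole within 0.01. Hba-a3 was in that range in 40 libraries and whole in 1, and Hbb-b1 in 28 and whole in 0. How the reads were split between copies is therefore uncertain, and the sums below do not depend on the split within a cluster. Library C17 had Hba-a3 at 0.0994 CPM beside Hba-a1 at 99.9 CPM, 79.8% of its alpha counts. Elsewhere Hba-a1 took 57.1% to 72.05% of the alpha counts.

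Alpha and beta sums moved together across rats. The sum of the 3 alpha genes ran from 45.8 to 1753 CPM with a median of 348 CPM, and that of the 5 beta genes from 12.8 to 1386 CPM with a median of 271 CPM. On the log2 scale the SD was 1.06 for the alpha sum and 1.19 for the beta sum, but 0.31 for their ratio. The ratio of alpha to beta counts had a median of 1.35 in series F, 1.29 in E, 1.44 in D, 1.53 in C and 1.35 in B, and its range over all libraries was 0.883 to 3.59. The highest ratio was that of C23, with C5 next at 2.27, and the lowest that of C22. Without C23, the lowest alpha sum was 119 CPM (C11) and the lowest beta sum 94.5 CPM (C17).

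Of the 7 members, 6 differed between series. Over all genes, limma's moderated F test on log2(CPM + 1) called 320 of 18749 at a Benjamini-Hochberg adjusted p under 0.05, which is 1.71%. The adjusted p was 0.00013 for Hba-a1, 0.00099 for Hba-a2, 0.0075 for Hba-a3, 0.0020 for Hbb, 0.00099 for Hbb-b1 and 0.028 for Alas2, whereas that of Hbbl1 was 0.36. The call for Alas2 was lost when any of 7 libraries was left out (adjusted p up to 0.076), and with no filter on low values (adjusted p = 0.088). The other 5 calls were kept without any single library.

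Series F and E were higher than C in 5 members each. In F minus C, where 0.997% of genes were called in either direction and 0.731% as higher, the log2 difference was 1.68 ± 0.34 for Hba-a1 (SE, adjusted p = 0.0019), 1.55 ± 0.34 for Hba-a2 (adjusted p = 0.0076), 1.29 ± 0.31 for Hba-a3 (adjusted p = 0.018), 1.83 ± 0.43 for Hbb (adjusted p = 0.015) and 1.55 ± 0.32 for Hbb-b1 (adjusted p = 0.0030) by limma. Alas2 differed by 0.74 ± 0.24 (adjusted p = 0.13) and Hbbl1 by 1.23 ± 1.17 (adjusted p = 0.62), which did not pass. In E minus C, where 1.94% of genes were called and 0.923% as higher, the difference was 1.71 ± 0.34 for Hba-a1, 1.58 ± 0.34 for Hba-a2, 1.29 ± 0.31 for Hba-a3, 2.28 ± 0.43 for Hbb and 1.17 ± 0.32 for Hbb-b1, with adjusted p from 0.00098 to 0.041. Alas2 differed by 0.83 ± 0.24 (adjusted p = 0.056). The median log2 difference of the 7 members was 1.55 in F minus C and 1.29 in E minus C, against 0.0045 and -0.0196 over all genes tested. The calls for Hba-a3 and for Hbb in F minus C and for Hba-a3 and Hbb-b1 in E minus C were each lost without some single library of the later series (adjusted p up to 0.12, 0.069, 0.071 and 0.11), the last one also without C3, C7, C11 or C14. With no filter, adjusted p was 0.052 for Hba-a3 in F minus C and 0.090 for Hbb-b1 in E minus C, which with the log10 library total as a covariate was 0.097. With median-ratio scaling Alas2 passed in E minus C at 0.85 (adjusted p = 0.047).

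Against series B, fewer members passed. In F minus B, where 0.533% of genes were called and 0.421% as higher, Hba-a1 differed by 1.84 ± 0.40, Hba-a2 by 1.71 ± 0.41 and Hbb-b1 by 1.81 ± 0.38 (SE, adjusted p of 0.0080, 0.025 and 0.0051 by limma). In E minus B, where 0.416% of genes were called, 0.331% as higher and 0.0853% as lower, Hba-a1 differed by 1.86 ± 0.40 (adjusted p = 0.0073) and Hba-a2 by 1.73 ± 0.41 (adjusted p = 0.027). Both calls of Hba-a2 were lost without B27, B28 or B32 and without several libraries of the later series (adjusted p up to 0.082 in F minus B and 0.11 in E minus B). Both were also lost with no filter (adjusted p of 0.081 and 0.095), and Alas2 passed in E minus B with median-ratio scaling at 1.15 (adjusted p = 0.048). The median difference of the members was 1.71 in F minus B and 1.43 in E minus B, against -0.0141 and -0.0356 over all genes. The comparisons share series, so they are not independent of each other.

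No member passed between the neighbours in this order. In F minus E, 0 genes were called by limma, with 227 at an unadjusted p under 0.05, and Hba-a1 differed by -0.02 ± 0.40 and Hbb by -0.45 ± 0.51. Against D, F called 0.731% and E 0.992% of genes but no member, while 6 members and 2249 of 18749 genes in F minus D, and 5 members and 2873 genes in E minus D, had an unadjusted p under 0.05, with Hba-a1 at 0.99 ± 0.35 (adjusted p = 0.21) and 1.02 ± 0.35 (adjusted p = 0.14). In D minus C, 0.0533% of genes (0.0213% as higher) and no member were called. In D minus B and C minus B limma called 0 genes, with 558 and 660 at an unadjusted p under 0.05. Members at that level numbered 4 in D minus C, where 1207 genes were at that level, 4 in D minus B and 0 in C minus B.

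Xist, the RNA that coats the inactive X chromosome in females, was unevenly spread over the same series, and the labels give no sex. Xist had at most 0.692 CPM in 12 libraries and at least 147.5 CPM in 37. The high level was found in 7 of 7 libraries of F, 7 of 7 of E, 12 of 12 of D, 6 of 16 of C and 5 of 7 of B. With Xist as a covariate, 4 of 7 members and 219 of 18749 genes differed between series, the adjusted p of Hba-a3 being 0.094 and that of Alas2 0.096. The 5 calls in F minus C were then lost, with adjusted p from 0.051 to 0.18 and a difference of 1.53 for Hba-a1. Calls over all genes fell too, from 187 to 88 in F minus C and from 363 to 114 in E minus C, so the loss was not particular to the members. In E minus C, Hba-a1 and Hbb were still called (adjusted p of 0.041 and 0.020), while Hba-a2, Hba-a3 and Hbb-b1 were not (adjusted p of 0.069, 0.11 and 0.18). Against B, Hba-a2 was no longer called in F minus B or E minus B (adjusted p of 0.055 and 0.056). Among the 32 libraries with high Xist in series F, E, D and C, an alternative added after seeing the data, the F test called 212 genes, and Hba-a1 and Hbb were the members among them, with adjusted p of 0.030 and 0.049. There Hba-a1 differed by 1.32 in F minus C and 1.34 in E minus C (adjusted p = 0.13 in both), no member was called in either, and 6 libraries were left in C. Over all genes, 56 were called there in F minus C and 49 in E minus C. The part of Xist in the series difference was not tested beyond these fits.

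Markers of vessels and other blood cells are given beside these differences. The summed level of 8 endothelial genes had a median of 245 CPM in series F (215 to 317), 270 CPM in E (249.9 to 295), 242 CPM in D (171 to 278), 211 CPM in C (169 to 256) and 229 CPM in B (215 to 241). Of these 8, Esam, a junction protein of endothelial cells, passed the F test between series (adjusted p = 0.00013) and was higher by 0.50 ± 0.10 in F minus C and 0.58 ± 0.10 in E minus C. Pecam1 and Cldn5 passed in E minus C as well, at 0.53 ± 0.14 and 0.41 ± 0.10. Of the 8 genes, 1 was thus called as higher in F minus C and 3 in E minus C, and 0 as lower in either. Over all genes, 0.731% and 0.923% were called as higher in these comparisons, and 1.71% passed the F test. The 7 mural genes had medians of 73.5 CPM in F, 71.9 CPM in E, 77.5 CPM in D, 60.4 CPM in C and 73.3 CPM in B. The 10 neutrophil genes had medians of 5.97 CPM in F, 6.50 CPM in E, 7.39 CPM in D, 8.25 CPM in C and 8.47 CPM in B, and the 7 platelet genes 6.54, 6.51, 6.92, 6.97 and 7.84 CPM in the same order. Csf3r, the receptor of granulocyte colony-stimulating factor, was the neutrophil gene that passed the F test between series (adjusted p = 0.015) and was lower in E minus B by limma, at -0.56 ± 0.14 (adjusted p = 0.039). Its medians were 3.08 CPM in F, 3.42 CPM in E, 3.36 CPM in D, 4.38 CPM in C and 4.865 CPM in B. Over all libraries, Csf3r and Camp had the highest medians of the 10 neutrophil genes, 3.99 and 2.32 CPM. Cxcr2, Ngp, Mmp8, Mpo and Elane had medians of 0, so the neutrophil sum says little about them. Lymphocyte genes summed to at most 2.23 CPM in any library, and 0 of 10 passed the filter. Their part in the series difference of the globins was not tested.

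Within series, Hba-a1, Hba-a2, Hba-a3 and Hbb rose with Alas2, and Hbb-b1 and Hbbl1 did not pass. The slope of each gene on Alas2 was fitted with limma, both as log2(CPM + 1) and with series as a covariate. Of 18748 genes tested, 6 passed at an adjusted p under 0.05, all rising, which is 0.032%. They were Hba-a2 with a slope of 1.07 ± 0.14 (SE, adjusted p = 7.2e-06), Hba-a3 with 0.91 ± 0.13 (adjusted p = 6.8e-05), Hba-a1 with 0.97 ± 0.14 (adjusted p = 7.1e-05), Hbb with 1.02 ± 0.21 (adjusted p = 0.039), Hbb-bs with 1.01 ± 0.16 (adjusted p = 0.00035) and Lgals5 with 0.54 ± 0.09 (adjusted p = 0.00068). A slope of 1 means that the gene changed by as much as Alas2 on the log2(CPM + 1) scale. It does not mean the same factor in CPM, because adding 1 shrinks changes of genes at a few CPM or less, as Alas2 is. Changes of genes at high CPM, such as Hba-a1 and Hba-a2, are hardly shrunk. The median slope over all genes tested was close to 0 (-0.0025). Lgals5 encodes galectin-5, a lectin known from rat reticulocytes, and had 0.0398, 1.04 and 4.32 CPM as lowest, median and highest value. Hbb-b1 had a slope of 0.73 (adjusted p = 0.080) and Hbbl1 of 0.18 (adjusted p = 1.0), which did not pass. The call for Hbb was lost in 20 of 49 fits that left out 1 library (adjusted p up to 0.11), with slopes of 0.89 to 1.11, and the other calls of members were kept in all 49. Hbb also missed the threshold with no filter (adjusted p = 0.19), with Xist as a covariate (adjusted p = 0.052), without corrected identifiers (adjusted p = 0.051) and among libraries with high Xist (0.89, adjusted p = 0.16). Hbb-b1 passed with median-ratio scaling (0.78, adjusted p = 0.026) and with no series covariate (0.99, adjusted p = 1.6e-05).

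**Figure D3:**
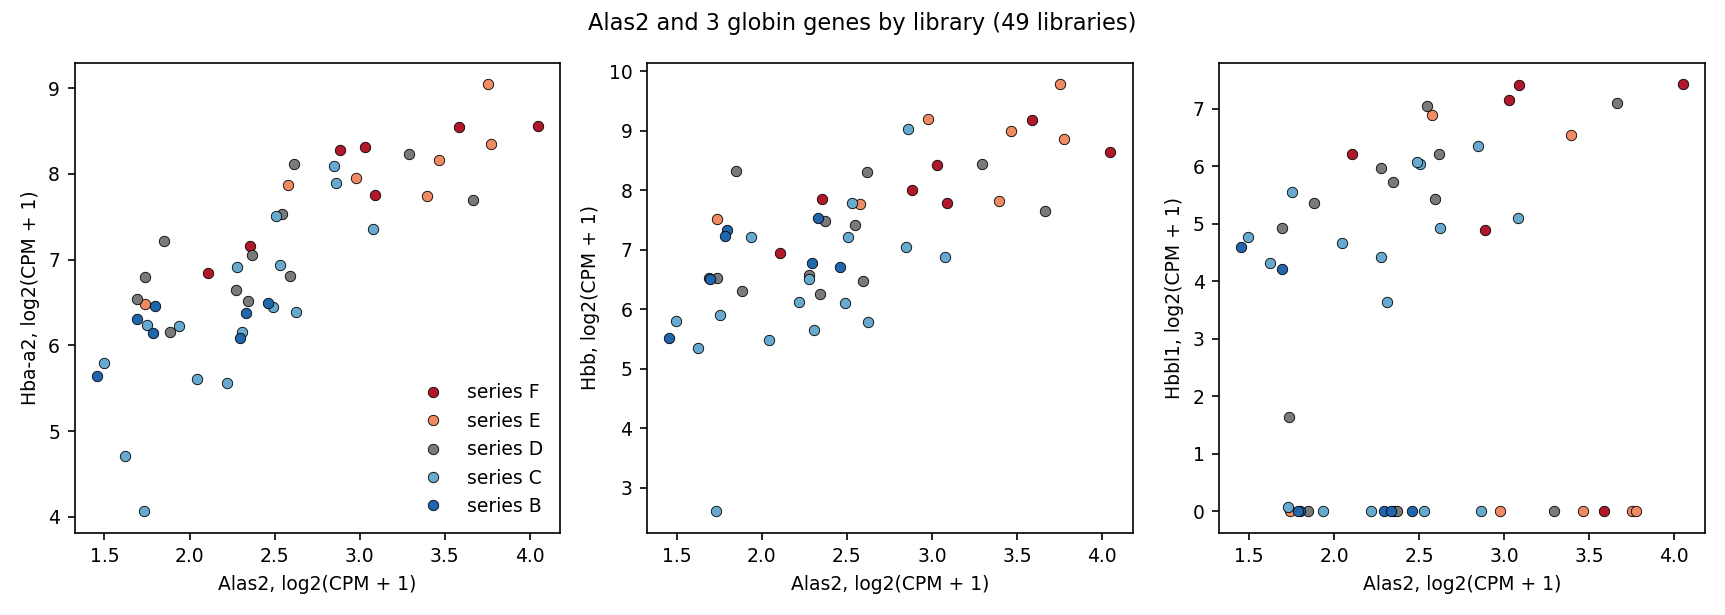
Alas2 (x axis) against Hba-a2, Hbb and Hbbl1 (y axes), all as log2(CPM + 1), with 1 point per library coloured by series. Hba-a2 and Hbb rise with Alas2, with r of 0.82 and 0.68 over 49 libraries, and C23 lies below the others in both; Hbbl1 is split into 28 libraries above its gap and 21 below.

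The members other than Hbbl1 were correlated in all 15 pairs. Over 49 libraries Pearson's r ran from 0.68 (Alas2 and Hbb) to 0.97 (Hba-a1 and Hba-a2), and Spearman's rho from 0.68 to 0.96. Each had a permutation p of 1e-05, the smallest that 100000 permutations can give, and the same after Benjamini-Hochberg adjustment over the 15 pairs. Libraries were permuted across series, so these p-values also take in shifts shared between series. No p was computed for values centred within series. Alas2 and Hba-a1 had an r of 0.80, of 0.69 on values centred within series, and of 0.78 when the 2 libraries with Alas2 farthest from its median were left out. Within series, their r was 0.92 in F, 0.89 in E, 0.71 in D, 0.72 in C and 0.20 in B. All 15 pairs had a positive r in F, E, D and C. In B, with 7 libraries of narrow range, 4 pairs had a negative r, from -0.35 for Hba-a3 and Hbb to -0.61 for Alas2 and Hbb-b1. Hbbl1 lay in 2 separate clusters and is given no pooled r. Within the 28 libraries above its gap, its r was 0.68 with Alas2, 0.77 with Hba-a1, 0.77 with Hbb and 0.76 with Hbb-b1. The permutation test gave an adjusted p of at most 7e-05 over 6 pairs. These r were pooled over series and not centred within series.

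Several genes that define red cells were at or near 0. Of the 24 genes of a list of erythroid and red cell membrane genes, 22 are in the table under these symbols and 10 passed the filter. Slc4a1, the anion exchanger band 3, had a median of 0.149 CPM and a highest value of 1.04 CPM. Ahsp, the chaperone of free alpha globin, had a median of 0.483 CPM and a highest value of 1.66 CPM. Gata1, an erythroid transcription factor, was at 0 in 38 of 49 libraries, and Rhag, the Rh-associated glycoprotein, in 48. None of the 10 genes past the filter rose or fell with Alas2. They included Bpgm and Mkrn1, which brain cells also express, and their slopes ran from -0.07 to 0.03.

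With no filter on low values, 6 of 34303 genes had a slope on Alas2, and Hbq1b, the theta globin beside the alpha genes, was among them at 0.36 ± 0.07 (limma, adjusted p = 0.036). Hbq1b had 0 to 1.79 CPM, with medians of 0.6002 CPM in series F, 0.782 CPM in E, 0.509 CPM in D, 0.277 CPM in C and 0.0885 CPM in B. Slc4a1 followed with 0.22 ± 0.05 (adjusted p = 0.26) and Ahsp with 0.28 ± 0.07 (adjusted p = 0.35), which did not pass but ranked 10 and 13 of 34303 by p. The embryonic globins were not detected at this depth beyond traces. Hbe2 and Hbg1 were at 0 in all 49 libraries, and Hbz and Hbe1 in 47 each, with at most 0.0890 and 0.0594 CPM.

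Of the 13 genes of the heme synthesis list, all passed the filter and 0 were called in the fit on Alas2, in which 0.032% of all genes were called, with a median slope of -0.03 and a range of -0.12 to 0.02. They included Alas1, with a median of 28.7 CPM and a slope of -0.04 ± 0.06, and Fech, the ferrochelatase of the last step, with 28.7 CPM and -0.07 ± 0.07. None of the 13 differed between series. The brain globins also did not pass: Ngb, neuroglobin, had a slope of 0.01 ± 0.07 and Cygb, cytoglobin, of -0.03 ± 0.06. Of 11 genes that handle heme and iron, 10 passed the filter and 0 were called, with slopes from -0.05 (Tf, transferrin) to 0.17 (Hp, haptoglobin). Slopes of 0 genes were called in the lists of endothelial (8), mural (7), microglial (7), meningeal (5), choroid plexus (3 past the filter), platelet (3), monocyte (2), oligodendrocyte (4), astrocyte (4), RMTg (10) and dopamine (4) genes. Among 3 neutrophil genes past the filter, S100a9, a calcium-binding protein of neutrophils, had a slope of 0.66 ± 0.21 (adjusted p = 1.0). The others had negative slopes, Csf3r of -0.13 ± 0.07 and Camp of -0.05 ± 0.13, which did not pass either. S100a9 was at 0 in 12 libraries, with a median of 0.466 CPM and a highest value of 11.9 CPM.

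**Figure D4:**
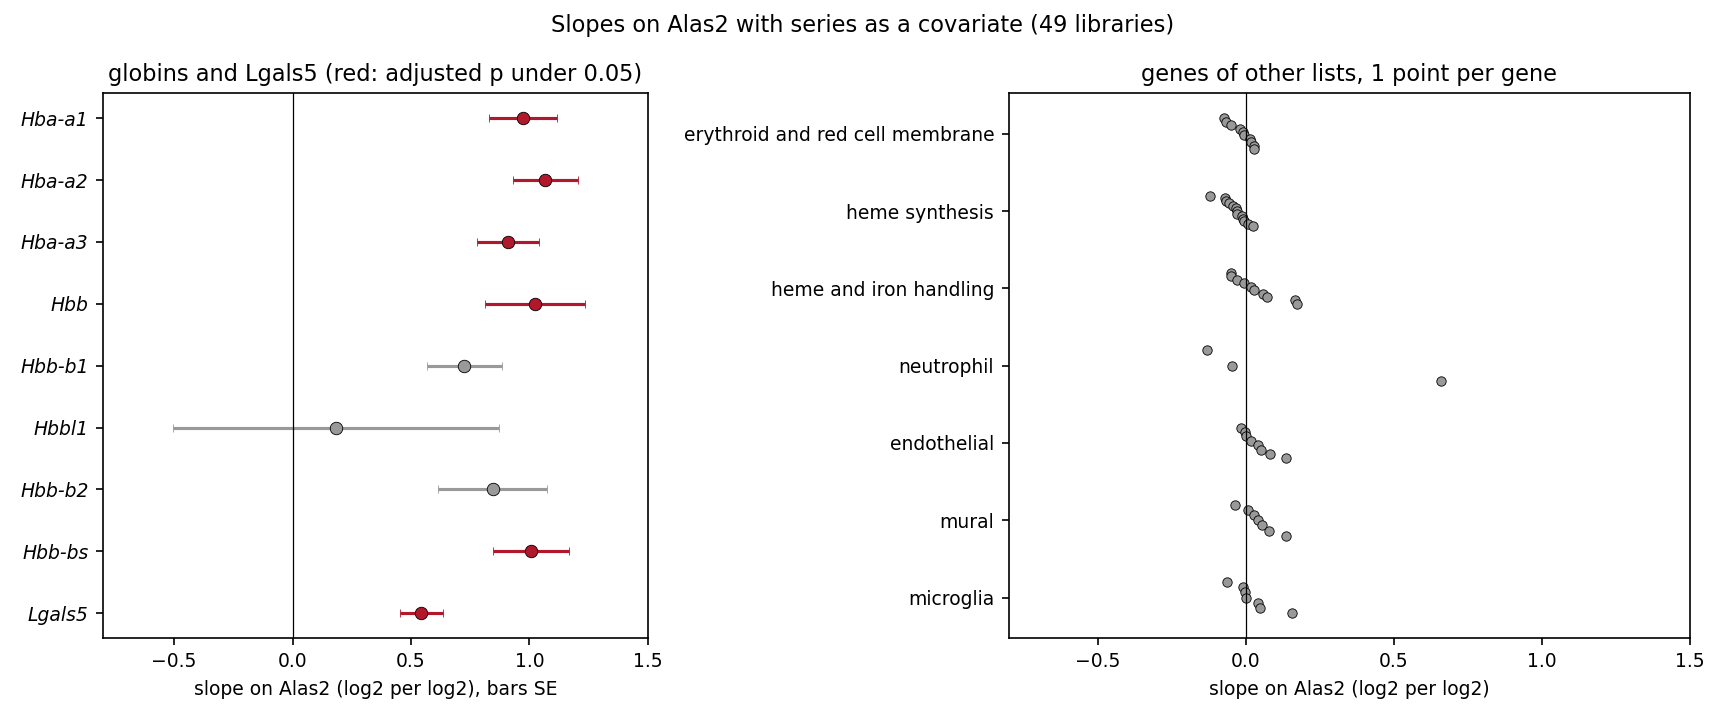
Slope of each gene on Alas2 from the limma fit with series as a covariate, in log2 units per log2 unit; left, single genes with their SE, red where the adjusted p is under 0.05; right, genes of 7 other lists past the filter, 1 point per gene. The called globins lie between 0.91 and 1.07, and heme synthesis genes between -0.12 and 0.02; the neutrophil point at 0.66 is S100a9.

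When a globin was the predictor in place of Alas2, many more genes passed, and far fewer of them without C23. C23 was the only library left out of these fits, so other libraries cannot be compared with it. With Hba-a2 as the predictor 849 genes passed (4.53%, with 1.61% rising and 2.92% falling), and 250 (1.33%, with 0.155% rising and 1.18% falling) without C23. With Hbb as the predictor 2079 passed (11.1%, with 3.96% rising and 7.13% falling), and 210 (1.12%, with 0.416% rising and 0.704% falling) without C23, an alternative added after seeing the data. In the fit on Hbb with all libraries, Glrx5 rose among the 13 heme synthesis genes, Ppox and Slc25a37 were among those that fell, and 0 of the 13 passed without C23. Hbbl1 had a slope on Hbb of -0.76 ± 0.36 with all libraries (adjusted p = 0.16) and fell with Hbb without C23, at -1.51 ± 0.40 (adjusted p = 0.045). Both slopes run across the separate clusters of Hbbl1. Within the 28 libraries above its gap, Hbbl1 and Hbb had an r of 0.77. That r was pooled over series, whereas both slopes had series as a covariate, so it is not directly comparable with them. S100a9 rose with Hba-a2 in both fits, at 0.52 ± 0.14 with all libraries (adjusted p = 0.030) and 0.58 ± 0.16 without C23 (adjusted p = 0.047). The other neutrophil genes past the filter did not pass there. Csf3r had slopes on Hba-a2 of -0.095 with all libraries and -0.080 without C23, and Camp of 0.042 and -0.063. Alas2 itself rose with Hba-a2 at 0.51 ± 0.07 and 0.58 ± 0.07, and with Hbb at 0.31 ± 0.07 and 0.38 ± 0.08.

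The genes whose pattern was most like that of the members were 2 further beta globins. Likeness was the median Spearman rho with the 7 members over the 49 libraries, on values centred within series, and is a description. Hbb-bs had a median rho of 0.74 and Hbb-b2 of 0.73. Lgals5 followed with 0.63 and differed between series too (adjusted p = 0.00012 by limma's F test). The next were Kif22 (a mitotic kinesin) at 0.47, Tmem160 and Agap2 at 0.44, Rpl37l1 and Tpm2 (beta-tropomyosin) at 0.43, and Cenpa (the centromeric histone) and Zfp950l17 at 0.42. Over the 18742 genes outside the members, 95% of medians lay between -0.31 and 0.26, and 3 were above 0.6. The lowest were Galt, which converts galactose-1-phosphate, at -0.62, Rngtt, the mRNA capping enzyme, at -0.55, the nucleoporins Nup98 at -0.50 and Nup155 at -0.48, and Zfp146 at -0.47. Galt had 18.5 to 66.9 CPM, and its slope on Alas2 was -0.40 ± 0.09 (adjusted p = 0.086). The points share library depth and, for the globins, reads between copies.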

How the data were processed

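RNA was sequenced from the RMTg of outbred rats, and the 93 samples in the labels form 1 group. The authors deposited 1 table of log2(estimated count + 1) per gene and library, and the submitters' processing notes name kallisto 0.48; filters and the genome build are not given in the sources used here. Each value x was turned back into 2 to the power x minus 1, divided by the library total and scaled to 1000000 (CPM), and log2(CPM + 1) was analysed. These are log values of estimated counts with no deposited count table, so limma 3.58.1 in R 4.3.3 was used and no count model. Genes with log2(CPM + 1) of at least 1 in at least 20% of the 49 libraries were tested. Moderated F tests and pair contrasts compared the 5 identifier series, and slopes on Alas2 had series as a covariate, all with a mean trend and Benjamini-Hochberg adjustment over all genes tested at 0.05. The code was tested on simulated data. Correlations used 100000 permutations in Python 3.11.15 with scipy 1.17.1. Alternatives were another pseudocount (0.1 CPM), no filter, other scaling, covariates for depth and Xist, other libraries and predictors, and leaving out each library.

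The genes named are the 7 members, the members of fixed lists that a sentence counts, and the 10 genes of highest and 5 of lowest median Spearman rho with the members, passing over unnamed loci. The further beta genes, Lgals5 as a called gene, and Xist were named after their values were seen. The members, lists and tests were chosen with earlier results of these data known, among them that erythroid genes differed between the series, so these are no independent support. The labels do not say that series are batches, and each library is taken as 1 rat without a label that says so, so p-values measure the spread between these libraries. With 3 counts as the limit that a count of 0 allows, floors cover counting error only. No column of another series was present. Some genes of the lists are not reported here by name.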

Additional observations from a re-analysis of the deposited data

Results flagged for a closer look

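Globin signal was also present in libraries that the limits left out. These results are given because the libraries took no part in the comparisons, and a gene is counted where it exceeded 3 counts, the limit that a count of 0 allows; no control samples exist. Among the 32 libraries in which LOC120093067 plus Zfp532 took over 10% of the counts, Hba-a1 exceeded 3 counts in 32, Hba-a2 in 32, Hba-a3 in 11, Hbb in 32, Hbb-b1 in 26, Hbbl1 in 11 and Alas2 in 13. Their median levels were 60.2 CPM for Hba-a1, 17.6 CPM for Hba-a2, 30.1 CPM for Hbb and 1.43 CPM for Alas2. Among the 11 libraries in which Nif3l1 took over 20%, Hba-a1 exceeded 3 counts in 6, Hbb in 3 and Hbbl1 in 2, and Hba-a2, Hba-a3, Hbb-b1 and Alas2 in 0. The median of Hba-a1 there was 1.99 CPM. Because 1 or 2 features fill these libraries, the CPM values of this paragraph were taken over totals without Nif3l1, LOC120093067, Zfp532 and ribosomal RNA genes. Those of the 49 libraries were taken over all counts, so the values are not comparable. Within the 24 groups of 4 to 10 libraries tested for a single value far from the others, 0 had one, where chance gives about 1 in 20. Series C and D, with 16 and 12 libraries, were too large for this test, and C17 and C23 belong to series C.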

How the results depend on the processing

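The counts of 320 genes differing between series, 6 of 7 members differing, 6 genes with a slope on Alas2 and 4 globins among them stayed within 1.5 times under another pseudocount, no filter, median-ratio scaling (which shifted libraries by -0.10 to 0.23 log2 units), a total without the dominant features and the members, the log10 total or Xist as a covariate, and without corrected identifiers. With the libraries over the limit on LOC120093067 plus Zfp532 kept, and totals taken without the dominant features, 11385 genes differed between series and 13553 had a slope on Alas2. Among libraries with high Xist, chosen after seeing the data, 212 genes and 2 members differed between series. With Hba-a2 or Hbb as the predictor, 849 and 2079 genes had a slope, and 250 and 210 without C23, the last pair added after seeing the data; the cause of these changes was not tested.

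The differences and slopes that turned round had passed no test, whereas 4 correlations that had passed over all libraries were negative within series B. For Hba-a3, C minus B was -0.126 with a pseudocount of 0.1, -0.00405 without corrected identifiers and -0.00724 with the log10 total as covariate, and F minus E was -0.0183 with median-ratio scaling and -0.0282 with the log10 total. For Hbbl1, D minus C was -0.247 with Xist as covariate and -0.205 among libraries with high Xist, where Alas2 in D minus C was -0.00253, and the slope on Alas2 was -0.0841 with a pseudocount of 0.1. Within series B these r were -0.605 for Alas2 and Hbb-b1, -0.423 for Hba-a1 and Hba-a3, -0.350 for Hba-a3 and Hbb, and -0.496 for Hba-a3 and Hbb-b1. Leaving out 1 library gave 232 to 563 genes differing between series (563 without C22), 5 to 6 members, 5 to 7 genes with a slope and 3 to 5 globins, and slopes of Hbbl1 from -0.12 to 0.49. No paired analysis was possible because all samples belong to 1 group. Depth limits the red cell genes under 1 CPM, where 3 counts are 0.0598 to 0.314 CPM.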
